A study of Mus musculus with 12 samples.

Results

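Cholesterol and fatty acids are both built from acetyl-CoA. The genes described here are 31 mouse genes of their synthesis, followed across cell state and EPOP genotype. They were chosen by symbol, with earlier results of these data known. They comprise 18 sterol enzymes, 7 fatty acid enzymes and 6 genes for the regulators of both branches and a sterol carrier. All 31 were found among the 19630 named features of the count table and all 31 passed the filter on low counts, with at least 106 counts (Insig2) in every library.

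RNA was sequenced in E14 mouse embryonic stem cells (mESCs) and in epiblast-like cells (EpiLCs) made from them, a step that carries naive cells towards the early post-implantation epiblast. Cells re-expressed either a mutant or the wild-type (WT) form of EPOP, a protein that associates with Polycomb repressive complex 2 and elongin BC. The 4 groups were mutant EpiLCs, WT EpiLCs, mutant mESCs and WT mESCs, with 3 libraries each and no drug treatment in the labels beyond the culture media. EpiLCs were plated on fibronectin in N2B27 medium with 12 ng/ml bFGF, 20 ng/ml activin A, 1% KSR and B27 at 0.5×, and mESCs on gelatin in 2i/LIF medium with 0.05% BSA, B27 at 1×, 1 µM of the MEK inhibitor PD0325901 and 3 µM of the GSK3 inhibitor CHIR99021. Medium and state therefore cannot be told apart in any EpiLC and mESC comparison. The mutation, the clones and the make-up of the parental cells are not given in the sources used here. A difference between mutant and WT cells therefore cannot be told apart from one between clones or cultures.

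The sterol branch starts with the mevalonate pathway, which turns acetyl-CoA into farnesyl diphosphate. The next stretch joins farnesyl units into squalene, closes lanosterol and trims it to cholesterol. In the fatty acid branch, acetyl-CoA is carboxylated, chained into palmitate, elongated and desaturated. Both are driven by the SREBP transcription factors: SCAP escorts SREBPs out of the endoplasmic reticulum when sterols are scarce, and INSIG proteins hold SCAP back when sterols are plentiful. SREBP2 acts mainly on sterol genes and SREBP1 mainly on fatty acid genes.

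Library depth ran from 7714164 to 10652151 counts in named genes, and no library was a copy of another. The states matched their labels: the summed level of 10 naive pluripotency markers was 168 to 179 CPM (counts scaled to the effective library size) in mutant EpiLCs, 375 to 401 in WT EpiLCs, 4130 to 4190 in mutant mESCs and 4090 to 4270 in WT mESCs. Of these markers Dppa3 was low throughout and not lower in EpiLCs. Its means were 0.948 CPM in mutant EpiLCs, 1.44 in WT EpiLCs, 0.544 in mutant mESCs and 0.702 in WT mESCs. The summed level of 9 EpiLC and formative markers was 1700 to 1740 CPM in mutant EpiLCs, 1570 to 1620 in WT EpiLCs, 194 to 199 in mutant mESCs, with Fgf5 at 0, and 208 to 227 in WT mESCs. For 9 markers of 2-cell-like cells it was 30 to 32.3 CPM in mutant EpiLCs, 106 to 128 in WT EpiLCs, 8.69 to 11.1 in mutant mESCs, with Tcstv1 at 0, and 64.6 to 76.1 in WT mESCs. For 9 endoderm markers it was 19.4 to 24.8 CPM in mutant EpiLCs, 43.7 to 46 in WT EpiLCs, 9.8 to 10.8 in mutant mESCs and 12.7 to 16.1 in WT mESCs, with Afp at 0 in all groups but mutant EpiLCs. For 8 fibroblast markers it was 11.2 to 14 CPM in mutant EpiLCs, 7.52 to 10.6 in WT EpiLCs, 10.1 to 17.1 in mutant mESCs and 15 to 17.2 in WT mESCs, with Col3a1 at 0 in all groups, Postn and Lum in all but mutant EpiLCs and Dcn in both mESC groups. In mutant against WT EpiLCs, 9 of 10 naive markers fell, formative markers were called both ways (6 of 9 higher, 3 lower), and 6 of 8 tested 2-cell-like markers and 3 of 7 tested endoderm markers fell. In mutant against WT mESCs, 8 of 8 tested 2-cell-like markers, 3 of 9 formative markers and 1 of 7 endoderm markers fell, and naive markers gave 1 call higher and 1 lower. Of 5 tested fibroblast markers, 1 was called higher in mutant EpiLCs and 1 lower in mutant mESCs. Of all genes tested, 7.02% were called higher and 8.82% lower in EpiLCs, and 8.4% and 10.1% in mESCs. The part of these marker changes in the results for the lipid genes was not tested. In bulk RNA, fewer cells of a type and less RNA per cell cannot be told apart.

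Levels of different genes were compared per transcript length, on the authors' deposited TPM, a level scaled for transcript length and depth. Scd2, a stearoyl-CoA desaturase, had the highest level of the 31 in every group, at 1191.0 ± 28.9 TPM in WT EpiLCs and 705.8 ± 28.7 TPM in WT mESCs (SD, n = 3). In WT EpiLCs it was followed by Fdps (farnesyl diphosphate synthase) at 583.9 ± 18.2, Hmgcs1 (HMG-CoA synthase) at 530.7 ± 15.7, Acly (ATP citrate lyase, which makes cytosolic acetyl-CoA) at 495.0 ± 6.49 and Fasn (fatty acid synthase) at 446.9 ± 21.9 TPM. In WT mESCs the next levels were Acly at 506.4 ± 21.7, Fdps at 389.1 ± 13.9, Msmo1 (methylsterol monooxygenase) at 329.0 ± 1.22 and Hmgcs1 at 281.9 ± 11.7 TPM. Some neighbours further down lay within their spread, such as Srebf2 at 249.5 ± 13.3 and Fasn at 237.1 ± 15.6 TPM in WT mESCs.

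At the low end stood Insig2, at 10.9 ± 0.704 TPM in WT EpiLCs and 10.31 ± 2.54 TPM in WT mESCs, and Acss2, which makes acetyl-CoA from acetate, at 20.68 ± 3.1 TPM in WT EpiLCs and 15.96 ± 1.93 TPM in WT mESCs. Insig1 was the main INSIG transcript, at 309.5 ± 1.72 TPM in WT EpiLCs and 198.5 ± 4.89 TPM in WT mESCs. Srebf2 stood above Srebf1, which had 118.6 ± 2.65 TPM in WT EpiLCs and 95.18 ± 1.93 TPM in WT mESCs. Summed over the 18 sterol enzymes, TPM was 3138 ± 45.6 in WT EpiLCs and 2381 ± 62.7 in WT mESCs, a ratio of 1.32. Summed over the 7 fatty acid enzymes, TPM was 2576 ± 76.8 in WT EpiLCs and 1761 ± 85.0 in WT mESCs, a ratio of 1.46. Scd2 and Scd1 are paralogs, so reads shared by both could be lost or split in counting, and 12.1% of the exon length of Tm7sf2 is shared with Vps51 on the same strand.

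**Figure D1:**
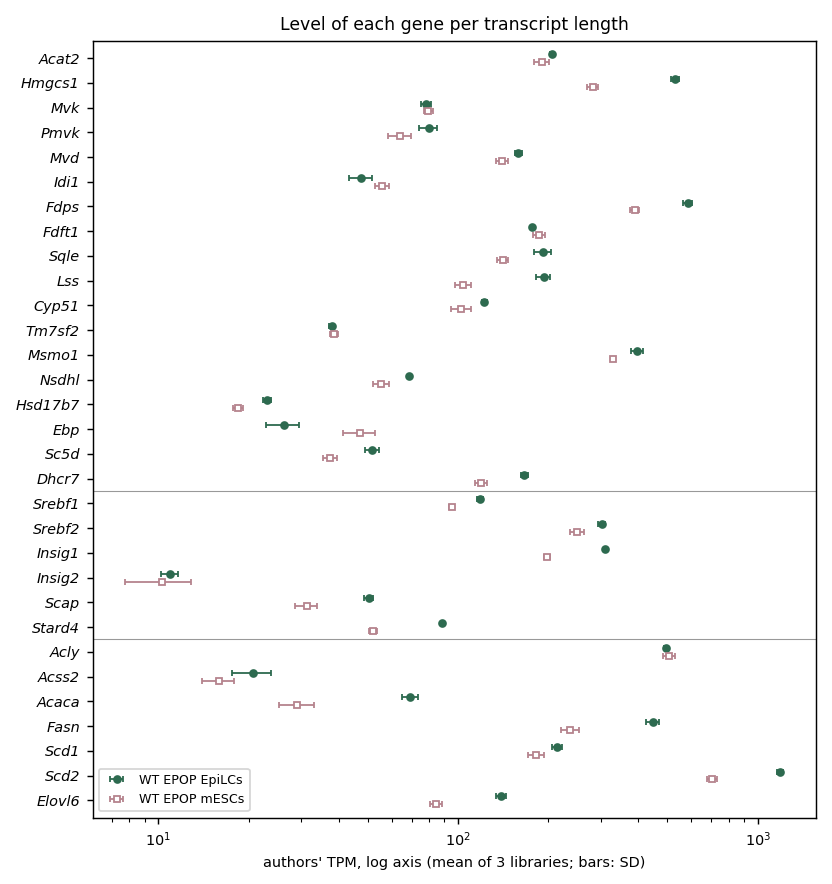
Authors' TPM (log axis) of the 31 genes in WT EpiLCs (filled circles) and WT mESCs (open squares), as the mean of 3 libraries with SD bars, and lines between sterol enzymes, regulators and fatty acid enzymes. Levels span from Insig2, near 10 TPM in both states, to Scd2, at 1191 TPM in WT EpiLCs and 705.8 TPM in WT mESCs.

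The state comparison asks how the 2 branches differ between EpiLCs and mESCs of the same genotype. In WT cells most of both branches rose in EpiLCs, with the largest rises in the committed fatty acid enzymes Acaca and Fasn, in Hmgcs1 at the entry to the mevalonate pathway and in the lanosterol synthase Lss. Of the genes that fell, the sterol isomerase Ebp fell by 47.6%. Of the 31 genes, 26 passed an adjusted p of 0.05 in edgeR's quasi-likelihood test and are termed called (83.9%), against 62.7% of all 13879 genes tested. Of these, 22 were higher in EpiLCs, against 31.7% of all genes, and 4 were lower, against 31% of all genes. The median log2 fold change was 0.64 over the 7 fatty acid enzymes, 0.40 over the 6 regulators and carrier genes, 0.21 over the 18 sterol enzymes and 0.01 over all genes tested. Among the 8484 genes with a mean CPM at or above that of Insig2, the lowest member, 68% were called, a level chosen after values were seen. The other members lie above this floor, some of them far above, so it does not match their level.

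All 7 fatty acid enzymes were called in WT cells, 6 higher and 1 lower. Acaca, acetyl-CoA carboxylase, had 294, 302 and 270.0 CPM in WT EpiLCs, against 141, 132 and 110.5 CPM in WT mESCs (log2 fold change 1.17, SE 0.059, adjusted p 2.79e-21). Fasn had 2063, 2140 and 1950 CPM in WT EpiLCs, against 1205, 1157 and 1080 CPM in WT mESCs (log2 fold change 0.84, SE 0.035, adjusted p 1.71e-45). In both genes every EpiLC library lay above every mESC library, by a margin many times the spread within a group. Scd2 had 2997, 3063 and 2931 CPM in WT EpiLCs, against 1922, 1887 and 1813 CPM in WT mESCs (log2 fold change 0.68, SE 0.031, adjusted p 6.76e-43). Elovl6, the elongase that extends palmitate to stearate, had 378, 398 and 369.7 CPM in WT EpiLCs, against 256, 238 and 241 CPM in WT mESCs (log2 fold change 0.64, SE 0.043, adjusted p 9.23e-29). Scd2 and Elovl6 were likewise high in every EpiLC library, with no overlap.

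The remaining fatty acid enzymes moved less. Scd1 had 484, 490.1 and 459.7 CPM in WT EpiLCs, against 448, 435 and 406 CPM in WT mESCs, groups that lie apart by a small gap (log2 fold change 0.15, SE 0.04, adjusted p 0.000384). Acss2 had 25.1, 31.8 and 24.3 CPM in WT EpiLCs, against 21.7, 24.7 and 19.6 CPM in WT mESCs, and the groups overlapped (log2 fold change 0.29, SE 0.113, adjusted p 0.0183). The Acss2 call ended without WT EpiLC replicate 2 (adjusted p 0.311) and without WT mESC replicate 3 (adjusted p 0.114). Acly was the fatty acid enzyme that fell, with 1007, 1026 and 1003 CPM in WT EpiLCs, against 1117, 1107 and 1052 CPM in WT mESCs (log2 fold change -0.11, SE 0.034, adjusted p 0.0033).

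In the sterol branch, 11 of 18 enzymes rose in WT EpiLCs and 3 fell. Hmgcs1 had 893, 882 and 854 CPM in WT EpiLCs, against 509.5, 482 and 482 CPM in WT mESCs (log2 fold change 0.84, SE 0.037, adjusted p 4.64e-45). Lss had 290.3, 273 and 266 CPM in WT EpiLCs, against 159, 164 and 148 CPM in WT mESCs (log2 fold change 0.81, SE 0.047, adjusted p 1.25e-33). Both genes were high in all EpiLC libraries, with no overlap. Fdps had 389.9, 408 and 384 CPM in WT EpiLCs, against 285, 268 and 278 CPM in WT mESCs (log2 fold change 0.51, SE 0.043, adjusted p 1.93e-21), although 26.7% of its exon length is shared with Gm43738, a gene on the same strand. Dhcr7, a reductase that can complete cholesterol, had 214, 224 and 213 CPM in WT EpiLCs, against 171, 161 and 159.8 CPM in WT mESCs (log2 fold change 0.40, SE 0.048, adjusted p 6.02e-13). Sc5d, a sterol desaturase, had 52.8, 56.9 and 51.2 CPM in WT EpiLCs, against 38.6, 43.2 and 41.2 CPM in WT mESCs (log2 fold change 0.39, SE 0.083, adjusted p 2.25e-05). Neither gene had overlapping groups.

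The other sterol enzymes that rose were Sqle (squalene epoxidase, log2 fold change 0.36), Hsd17b7 (a ketosterol reductase, 0.24), Pmvk (phosphomevalonate kinase, 0.24), Nsdhl (a sterol dehydrogenase, 0.23), Msmo1 (0.19) and Cyp51 (the lanosterol demethylase, 0.18). The Pmvk call ended without WT EpiLC replicate 1 (adjusted p 0.0575) or WT mESC replicate 1 (adjusted p 0.0983), and the Hsd17b7 call without WT mESC replicate 2 (adjusted p 0.0702). Acat2 (acetoacetyl-CoA thiolase), Mvk (mevalonate kinase), Mvd (the decarboxylase of the pathway) and Tm7sf2 (a sterol reductase) were not called, with log2 fold changes of 0.03, -0.11, 0.11 and -0.10.

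Ebp went the other way from most of its branch. It had 22.0, 18.1 and 23.1 CPM in WT EpiLCs, against 35.4, 45.1 and 39.3 CPM in WT mESCs (log2 fold change -0.93, SE 0.102, adjusted p 1.19e-14), and every WT EpiLC library lay below every WT mESC library. Idi1, the isomerase that makes dimethylallyl diphosphate, had 58.0, 69.5 and 61.1 CPM in WT EpiLCs, against 81.2, 77.8 and 74.4 CPM in WT mESCs (log2 fold change -0.31, SE 0.07, adjusted p 6.71e-05). Fdft1, squalene synthase, had 233, 235 and 232 CPM in WT EpiLCs, against 269, 259.9 and 252 CPM in WT mESCs (log2 fold change -0.16, SE 0.045, adjusted p 0.00111). Fdft1 shares 18.3% of its exon length with Ctsb on the opposite strand, and the sources used here do not state whether reads were assigned by strand.

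Of the 6 regulators and transport genes, 5 rose in WT EpiLCs. Srebf1 had 228, 236 and 242 CPM in WT EpiLCs, against 197, 203 and 198 CPM in WT mESCs (log2 fold change 0.24, SE 0.045, adjusted p 1.68e-06). Srebf2 had 648, 637 and 623 CPM in WT EpiLCs, against 568, 570.1 and 528 CPM in WT mESCs (log2 fold change 0.20, SE 0.037, adjusted p 2.33e-06). The shifts in the SREBP transcripts themselves were small beside those of Insig1, Scap and the sterol carrier Stard4, whose log2 fold changes were 0.56, 0.61 and 0.69. Insig2 was not called, at 14.9 ± 0.854 CPM in WT EpiLCs and 14.9 ± 3.83 CPM in WT mESCs (SD, n = 3; adjusted p 0.943). The medians stood in the same order, fatty acid above regulators above sterol, in the mutant cells.

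In mutant cells, 25 of 31 genes were called between EpiLCs and mESCs (80.6%), against 66% of all genes. Of these 22 were higher, against 33.4% of all genes, and 3 were lower, against 32.6%. The medians were 0.59 for fatty acid enzymes, 0.38 for regulators and 0.36 for sterol enzymes, beside 0.00 for all genes tested. Hmgcs1 had 921, 958 and 908 CPM in mutant EpiLCs, against 486, 474 and 477 CPM in mutant mESCs (log2 fold change 0.95, SE 0.037, adjusted p 4.49e-51). Lss had 261, 248 and 254 CPM in mutant EpiLCs, against 136, 141 and 144 CPM in mutant mESCs (log2 fold change 0.86, SE 0.048, adjusted p 2.64e-35). As in WT cells, neither gene had overlapping groups. Ebp had 20.7, 21.3 and 24.7 CPM in mutant EpiLCs, against 53.2, 53.4 and 49.7 CPM in mutant mESCs (log2 fold change -1.23, SE 0.098, adjusted p 7.14e-23), so it fell by 57.4%, and the groups lay far apart.

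Further along the sterol branch, Sc5d had 53.5, 65.4 and 56.4 CPM in mutant EpiLCs, against 38.4, 34.1 and 33.6 CPM in mutant mESCs (log2 fold change 0.72, SE 0.084, adjusted p 1.63e-13). Hsd17b7 had 56.2, 49.2 and 56.2 CPM in mutant EpiLCs, against 39.0, 37.4 and 34.6 CPM in mutant mESCs (log2 fold change 0.54, SE 0.083, adjusted p 5.83e-09). Fdps had 387, 424 and 386 CPM in mutant EpiLCs, against 243, 263 and 265 CPM in mutant mESCs (log2 fold change 0.63, SE 0.043, adjusted p 3.08e-28). All 3 lay apart between the states. Mvd (log2 fold change 0.23) and Acat2 (0.13) were called higher here, the Acat2 call ending without mutant EpiLC replicate 2 (adjusted p 0.178) or mutant mESC replicate 3 (adjusted p 0.117). Fdft1 was not called in mutant cells (log2 fold change -0.03, adjusted p 0.537), while Idi1 (-0.24) and Acly (-0.10) were called lower.

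Among fatty acid enzymes of mutant cells, Acaca had 307, 265 and 286 CPM in mutant EpiLCs, against 150.3, 143 and 145 CPM in mutant mESCs (log2 fold change 0.97, SE 0.058, adjusted p 9.04e-19). Scd2 had 3093, 3011 and 3101 CPM in mutant EpiLCs, against 1752, 1721 and 1716 CPM in mutant mESCs (log2 fold change 0.83, SE 0.031, adjusted p 1.24e-51). Both stood apart between the states in every library. Fasn had 2172, 1985 and 2104 CPM in mutant EpiLCs, against 1208, 1229 and 1241 CPM in mutant mESCs (log2 fold change 0.77, SE 0.035, adjusted p 3.45e-42). Elovl6 had 336, 341 and 340.0 CPM in mutant EpiLCs, against 218, 229 and 226 CPM in mutant mESCs (log2 fold change 0.59, SE 0.043, adjusted p 6.47e-26). These enzymes too were high in each EpiLC library. Scd1 had 469, 450.3 and 446 CPM in mutant EpiLCs, against 425, 408 and 416 CPM in mutant mESCs, a narrower gap (log2 fold change 0.13, SE 0.04, adjusted p 0.00295). Acss2 had 26.8, 28.1 and 28.4 CPM in mutant EpiLCs, against 21.8, 26.2 and 22.8 CPM in mutant mESCs, close groups that gave no call (log2 fold change 0.23, SE 0.111, adjusted p 0.0601). Acly had 1028, 986 and 988 CPM in mutant EpiLCs, against 1089, 1082 and 1059 CPM in mutant mESCs.

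Scap, Insig1 and Stard4 had their largest shifts in this comparison, while Insig2 was not called (-0.04). Scap had 101, 97.1 and 101 CPM in mutant EpiLCs, against 66.0, 65.7 and 58.5 CPM in mutant mESCs (log2 fold change 0.65, SE 0.065, adjusted p 3.78e-17). Insig1 had 356, 369 and 348 CPM in mutant EpiLCs, against 219.6, 244 and 235 CPM in mutant mESCs (log2 fold change 0.62, SE 0.043, adjusted p 1.57e-27). Stard4 had 109, 104 and 105 CPM in mutant EpiLCs, against 64.4, 68.1 and 57.8 CPM in mutant mESCs (log2 fold change 0.74, SE 0.062, adjusted p 2.28e-21). No library of one state reached the range of the other in these genes. Srebf2 rose by less (log2 fold change 0.14), and Srebf1 was not called (0.08, adjusted p 0.0957).

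**Figure D2:**
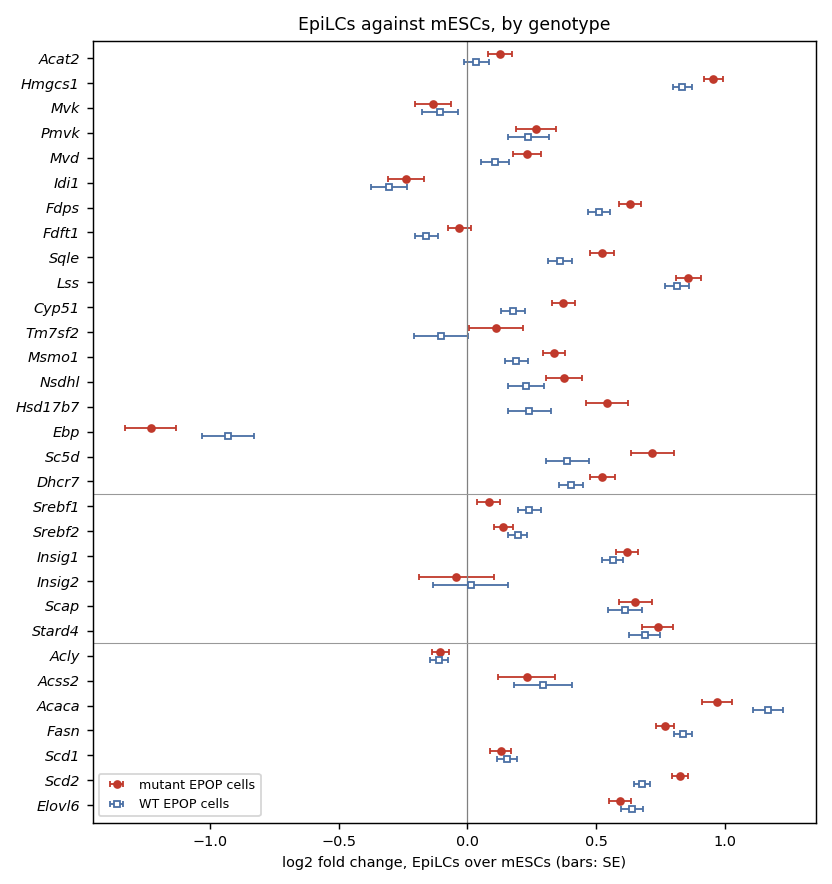
log2 fold change of EpiLCs over mESCs for each of the 31 genes, in mutant cells (filled circles) and WT cells (open squares), with SE bars from the edgeR fit and lines between sterol enzymes, regulators and fatty acid enzymes. Most genes lie right of 0, and Ebp lies farthest left in both genotypes.

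Promoters from RefSeq (GRCm38.p6), as the 250 bases before an annotated start, were matched by symbol for 25 of the 31 genes, with 33 windows because some genes have several starts. They were searched on both strands for TCACNCCAC (the core of a sterol regulatory element, the SREBP site), CCAAT (the NF-Y box) and GGGCGG (the SP1 box). Some windows lie inside the GENCODE gene: the lone Acaca window is 65766 bases inside and holds none of the motifs, that of Tm7sf2 is 523 bases inside, and for Dhcr7 the window with CCAAT is 7069 bases inside. Counted over all windows, CCAAT was found in 14 of 15 sterol enzymes, 4 of 5 regulators and 2 of 5 fatty acid enzymes, against 37.5% of 27025 genes. Over windows within 1000 bases of the gene start, a limit chosen after seeing the data, CCAAT was found in 13 of 15 sterol enzymes, 4 of 5 regulators and 2 of 4 fatty acid enzymes, against 36.3% of 17414 genes. GGGCGG was found over all windows in 14 of 15 sterol enzymes, 5 of 5 regulators and 2 of 5 fatty acid enzymes, against 35.4% of genes, and over the near windows in 14 of 15, 3 of 5 and 2 of 4, against 44.4%. The sterol regulatory core was found in Hmgcs1 alone, against 1.22% of genes, and no match says only that these letters are not in this window. Promoters are shown for Hmgcs1, the sterol enzyme with the largest rise, for Ebp, the one that fell most, for Sc5d, a late sterol enzyme that rose, and for Fasn of the fatty acid branch. Capitals mark CCAAT or its reverse complement ATTGG and, in Hmgcs1, the sterol regulatory core 137 bases before the start. In Fasn a pair of CCAAT boxes on opposite strands overlap in a shared run. Matches are a description of the letters and not of binding.
Hmgcs1 (chr13:119690101-119690350, plus strand): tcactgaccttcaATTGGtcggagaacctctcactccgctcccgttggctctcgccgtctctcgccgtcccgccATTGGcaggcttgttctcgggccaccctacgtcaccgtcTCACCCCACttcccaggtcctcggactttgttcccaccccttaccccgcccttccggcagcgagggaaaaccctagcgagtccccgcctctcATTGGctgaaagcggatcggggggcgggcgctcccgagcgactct
Ebp (chrX:8193513-8193762, minus strand): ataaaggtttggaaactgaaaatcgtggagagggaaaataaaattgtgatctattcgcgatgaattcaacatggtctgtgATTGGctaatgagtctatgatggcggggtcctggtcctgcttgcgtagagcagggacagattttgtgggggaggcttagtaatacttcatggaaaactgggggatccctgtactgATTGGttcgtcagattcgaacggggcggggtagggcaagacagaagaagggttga
Sc5d (chr9:42264301-42264550, minus strand): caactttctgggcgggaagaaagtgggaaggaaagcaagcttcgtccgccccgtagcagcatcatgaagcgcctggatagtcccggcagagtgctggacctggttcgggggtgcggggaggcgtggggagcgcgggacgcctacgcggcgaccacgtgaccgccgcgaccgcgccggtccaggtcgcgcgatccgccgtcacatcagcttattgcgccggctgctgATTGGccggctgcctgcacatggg
Fasn (chr11:120824548-120824797, minus strand): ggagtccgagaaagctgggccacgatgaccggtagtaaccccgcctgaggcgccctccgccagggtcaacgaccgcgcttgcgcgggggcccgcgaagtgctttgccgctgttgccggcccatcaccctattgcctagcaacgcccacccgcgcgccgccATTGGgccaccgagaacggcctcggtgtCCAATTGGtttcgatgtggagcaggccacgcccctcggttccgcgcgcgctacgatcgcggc

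The genotype comparison asks which transcripts differ between cells with the mutant protein and cells with the WT protein. In mESCs 5 of the 11 later sterol enzymes were called lower in mutant cells and fell by 8.09 to 15.7%, while Ebp was 30.2% higher and the mevalonate enzymes gave no call. Of the 31 genes, 13 were called in mESCs (41.9%), against 18.5% of all genes tested and 21.3% of the 8484 genes at or above the level of Insig2. The last share rests on a floor and is not matched to the level of the members. Of these, 4 were higher in mutant cells, against 8.4% of all genes, and 9 were lower, against 10.1%. The median log2 fold change was -0.11 over the 18 sterol enzymes, -0.15 over the 11 from squalene synthase onward, -0.02 over the 7 fatty acid enzymes, -0.01 over the 6 regulators and 0.00 over all genes. These medians are smaller in size than the same medians between states. The count of 13 became 8 without mutant mESC replicate 1, 7 without mutant mESC replicate 3 and 8 without WT mESC replicate 1. Calls over all genes fell too, from 2574 of 13879 to 2009 of 14137, 2018 of 14126 and 2132 of 14121 in these fits.

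Dhcr7 (chromosome 7, 143823145 to 143848410, GRCm38) had 136, 139.9 and 139 CPM in mutant mESCs, against 171, 161 and 159.8 CPM in WT mESCs (log2 fold change -0.25, SE 0.05, adjusted p 5.38e-05). Msmo1 (chromosome 8, 64718139 to 64733792) had 253, 247 and 256 CPM in mutant mESCs, against 291, 291 and 296 CPM in WT mESCs (log2 fold change -0.21, SE 0.044, adjusted p 8.75e-05). All 3 mutant libraries were low in both genes, below every WT library, and these calls held under each alternative that was run. Cyp51 had 198, 193 and 188 CPM in mutant mESCs, against 232, 218 and 203 CPM in WT mESCs (log2 fold change -0.18, SE 0.047, adjusted p 0.00318), and its call ended without WT mESC replicate 1 (adjusted p 0.0838). Lss had 136, 141 and 144 CPM in mutant mESCs, against 159, 164 and 148 CPM in WT mESCs (log2 fold change -0.17, SE 0.05, adjusted p 0.00966), and its call ended without mutant mESC replicate 1 (adjusted p 0.0597) or WT mESC replicate 2 (adjusted p 0.0972). Neither gene had overlapping groups.

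Sc5d had 38.4, 34.1 and 33.6 CPM in mutant mESCs, against 38.6, 43.2 and 41.2 CPM in WT mESCs, with mutant replicate 1 close to the lowest WT library, and was not called (log2 fold change -0.21, SE 0.088, adjusted p 0.0733). Fdft1 had 239 ± 7.13 CPM in mutant mESCs and 260.4 ± 8.54 CPM in WT mESCs (SD, n = 3; log2 fold change -0.12, SE 0.045, adjusted p 0.0415). Its call was the least firm of the branch: adjusted p was 0.0861 and 0.207 without mutant mESC replicate 2 or 3, 0.203 and 0.0898 without WT mESC replicate 1 or 2, and 0.0507 and 0.0552 without mutant EpiLC replicate 1 or 3, 0.0577 with DESeq2 and 0.0617 with no filter on low counts. Ebp (chromosome X, 8185329 to 8193512) was the sterol enzyme that rose. It had 53.2, 53.4 and 49.7 CPM in mutant mESCs, against 35.4, 45.1 and 39.3 CPM in WT mESCs (log2 fold change 0.38, SE 0.091, adjusted p 0.000852), so that all mutant libraries were above all WT libraries, and the call held under each alternative.

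None of the 7 mevalonate enzymes was called by edgeR, DESeq2 or limma-voom in mESCs, and at an unadjusted p under 0.05 edgeR gave 1, Fdps (-0.11, adjusted p 0.075). Their log2 fold changes ran from -0.11 to 0.07. Nsdhl and Hsd17b7 of the later stretch, not called, had log2 fold changes of -0.13 and -0.15, while Sqle and Tm7sf2 were at 0.00 and 0.01.

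Among the regulators, Stard4 had 64.4, 68.1 and 57.8 CPM in mutant mESCs, against 77.0, 76.3 and 73.9 CPM in WT mESCs (log2 fold change -0.26, SE 0.065, adjusted p 0.00165). Its mutant libraries were all low, and without mutant mESC replicate 3, the lowest, the log2 fold change was -0.19 with an adjusted p of 0.0522. Insig1 had 233 ± 12.4 CPM in mutant mESCs and 256 ± 3.51 CPM in WT mESCs (SD, n = 3; log2 fold change -0.14, SE 0.044, adjusted p 0.017), a call that ended without mutant mESC replicate 1 (adjusted p 0.181) or WT mESC replicate 1 (adjusted p 0.0674). Srebf1 went the other way, at 219 ± 4.64 CPM in mutant mESCs and 199 ± 3.29 CPM in WT mESCs (SD, n = 3; log2 fold change 0.13, SE 0.046, adjusted p 0.0284). Its adjusted p was 0.0515 and 0.121 without mutant mESC replicate 1 or 3, 0.0781, 0.051 and 0.0636 without WT mESC replicate 1, 2 or 3, 0.0907 with upper quartile scaling and 0.0625 with the filter at a mean of 5 CPM. Srebf2, Scap and Insig2 were not called, with log2 fold changes of 0.02, -0.04 and 0.03.

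The fatty acid enzymes split in mutant mESCs: Acaca and Fasn of chain synthesis were called higher, calls that ended without WT mESC replicate 3, and Scd2 and Elovl6 of desaturation and elongation were called lower. Scd2 had 1752, 1721 and 1716 CPM in mutant mESCs, against 1922, 1887 and 1813 CPM in WT mESCs (log2 fold change -0.12, SE 0.031, adjusted p 0.00359), with every mutant library low, and the call held under each alternative. Elovl6 had 218, 229 and 226 CPM in mutant mESCs, against 256, 238 and 241 CPM in WT mESCs (log2 fold change -0.12, SE 0.044, adjusted p 0.0328). The gap between its groups was small, and adjusted p was 0.151, 0.0513 and 0.0689 without mutant mESC replicate 1, 2 or 3 and 0.225 without WT mESC replicate 1.

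Acaca had 150.3, 143 and 145 CPM in mutant mESCs, against 141, 132 and 110.5 CPM in WT mESCs (log2 fold change 0.19, SE 0.062, adjusted p 0.028). Fasn had 1208, 1229 and 1241 CPM in mutant mESCs, against 1205, 1157 and 1080 CPM in WT mESCs (log2 fold change 0.10, SE 0.035, adjusted p 0.0415). WT mESC replicate 3 was low in both genes. Without it the log2 fold change was 0.10 for Acaca (adjusted p 0.232) and 0.05 for Fasn (adjusted p 0.343). Without mutant mESC replicate 1, 2 or 3, adjusted p was 0.11, 0.0551 and 0.0692 for Acaca and 0.0713, 0.0993 and 0.145 for Fasn. The Fasn call also ended without WT mESC replicate 2 (adjusted p 0.0941), WT EpiLC replicate 1 (0.0537) or WT EpiLC replicate 2 (0.0509). With the filter at a mean of 5 CPM adjusted p was 0.0574 for Acaca and 0.119 for Fasn, and for Fasn it was 0.159 with upper quartile scaling and 0.0957 with DESeq2. Acly, Acss2 and Scd1 were not called, with log2 fold changes of -0.02, 0.10 and -0.04.

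**Figure D3:**
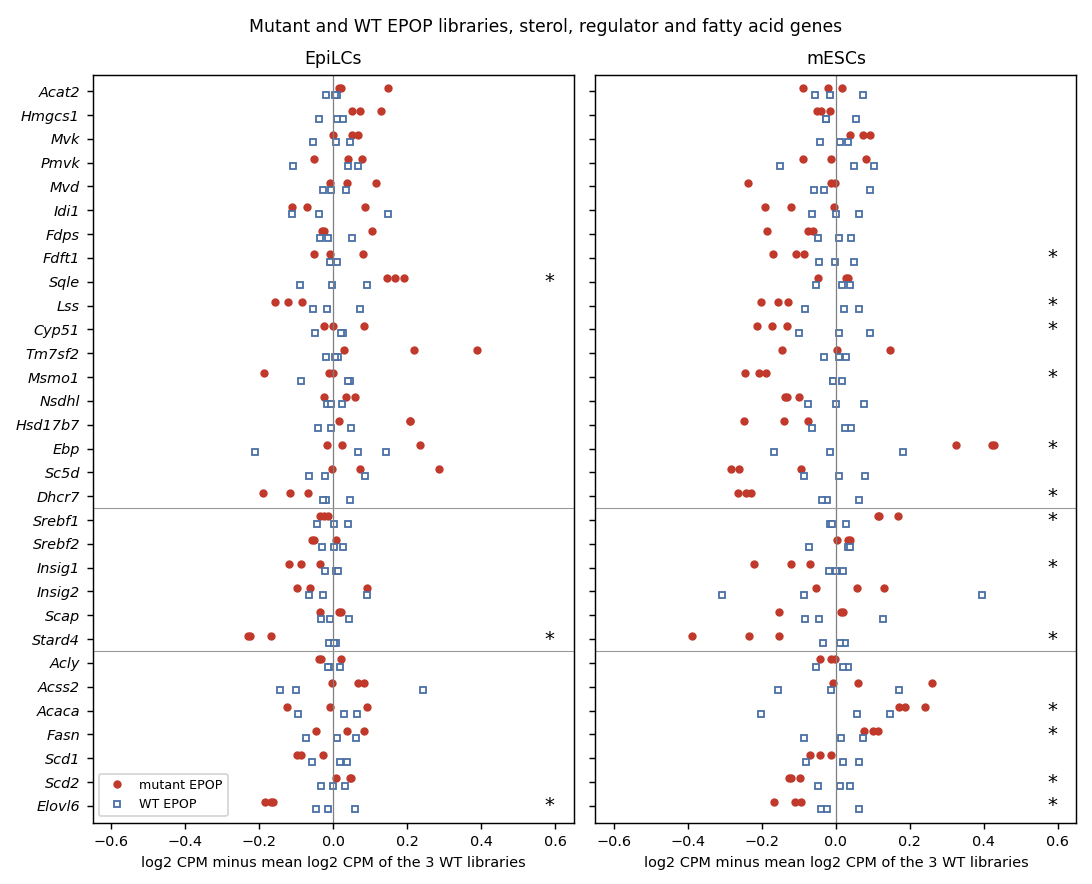
log2 CPM of each library minus the mean log2 CPM of the 3 WT libraries of its state, in EpiLCs and mESCs, for mutant (filled circles) and WT libraries (open squares), with asterisks for an edgeR adjusted p under 0.05 and lines between sterol enzymes, regulators and fatty acid enzymes. In mESCs most late sterol enzymes have mutant points left of the WT points and Ebp right of them, and in EpiLCs 3 genes carry an asterisk. Of the 11 late sterol enzymes, 5 were called lower in mESCs. The share of all genes with groups that lie apart was not counted.

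In EpiLCs the genes called between mutant and WT cells were Sqle, higher in mutant cells, and Stard4 and Elovl6, lower. That is 3 of 31 genes called (9.68%), against 15.8% of all genes tested and 20.5% of those at or above the level of Insig2, and nothing is read from a gap of so few genes. In the higher direction it was 1, against 7.02% of all genes, and in the lower direction 2, against 8.82%. The medians were 0.03 for sterol enzymes, -0.01 for fatty acid enzymes, -0.03 for regulators and 0.00 for all genes. The authors' deposited table called 5 of the 31 in this comparison, Sqle, Hmgcs1 and Scd2 higher and Stard4 and Elovl6 lower. Scd2 had a log2 fold change of only 0.036 there, and its mutant and WT EpiLC libraries overlapped in CPM. The share of all genes called by the authors was not counted. limma-voom called 6 of 31, against 2234 of 13879 genes. With genes kept at a mean of 5 CPM, edgeR called 5 of 31, against 2123 of 10790 genes.

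Sqle (chromosome 15, 59315077 to 59331192), a rate-limiting monooxygenase of the branch, had 273, 268 and 277 CPM in mutant EpiLCs, against 242, 259 and 228 CPM in WT EpiLCs (log2 fold change 0.17, SE 0.045, adjusted p 0.00456). The groups did not overlap, and without WT EpiLC replicate 3, the lowest, the log2 fold change was 0.12 with an adjusted p of 0.0859. Elovl6 (chromosome 3, 129532355 to 129638495) had 336, 341 and 340.0 CPM in mutant EpiLCs, against 378, 398 and 369.7 CPM in WT EpiLCs (log2 fold change -0.17, SE 0.042, adjusted p 0.00108). Stard4 had 109, 104 and 105 CPM in mutant EpiLCs, against 123, 121 and 122 CPM in WT EpiLCs (log2 fold change -0.20, SE 0.058, adjusted p 0.00649). All mutant libraries were low in Elovl6 and in Stard4, and both genes were called lower in mutant cells in both states. Over the replicates left out and the other settings, neither EpiLC call was lost.

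Among sterol enzymes with the largest shifts in EpiLCs, Tm7sf2 had 30.1, 33.8 and 26.4 CPM in mutant EpiLCs, against 26.1, 25.5 and 26.0 CPM in WT EpiLCs, a wide spread in mutant cells and no call (log2 fold change 0.22, SE 0.105, adjusted p 0.158). Hsd17b7 had 56.2, 49.2 and 56.2 CPM in mutant EpiLCs, against 48.4, 47.2 and 50.3 CPM in WT EpiLCs, with overlap and no call (log2 fold change 0.15, SE 0.081, adjusted p 0.214). Dhcr7 had 200.1, 190.0 and 207 CPM in mutant EpiLCs, against 214, 224 and 213 CPM in WT EpiLCs, without overlap and just outside the threshold (log2 fold change -0.12, SE 0.047, adjusted p 0.0591). Lss was similarly placed, with 261, 248 and 254 CPM in mutant EpiLCs, against 290.3, 273 and 266 CPM in WT EpiLCs (log2 fold change -0.12, SE 0.045, adjusted p 0.0546). Sc5d had 53.5, 65.4 and 56.4 CPM in mutant EpiLCs, against 52.8, 56.9 and 51.2 CPM in WT EpiLCs, which overlap (log2 fold change 0.12, SE 0.08, adjusted p 0.359). The other sterol enzymes had log2 fold changes between -0.07 (Msmo1) and 0.08 (Hmgcs1). The fatty acid enzymes other than Elovl6 lay between -0.07 (Scd1) and 0.03 (Scd2).

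**Figure D4:**
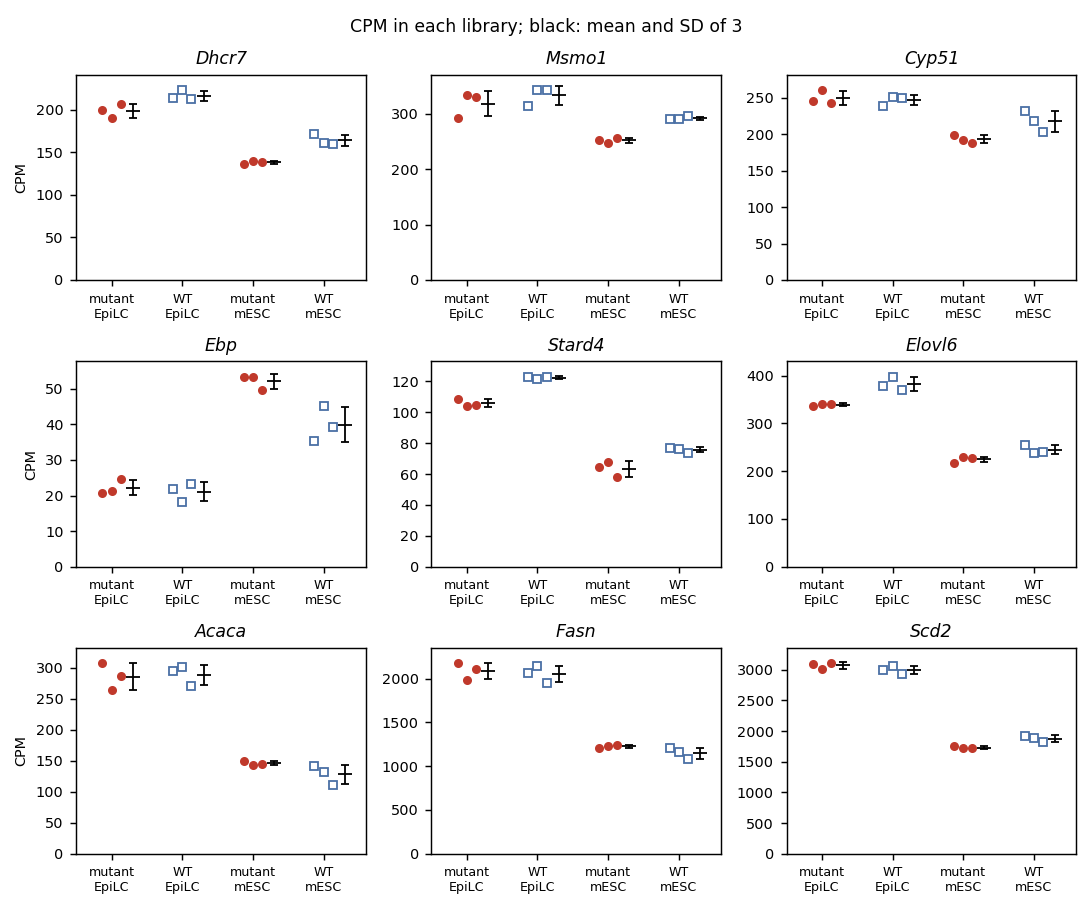
CPM in each library for 9 of the genes, in mutant EpiLCs, WT EpiLCs, mutant mESCs and WT mESCs, with filled circles for mutant libraries, open squares for WT libraries and black bars for the mean and SD of 3. Dhcr7, Msmo1, Stard4 and Scd2 are low in mutant mESCs, Ebp is high there, and Stard4 and Elovl6 are low in mutant EpiLCs.

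The difference of the mutant effects, EpiLCs minus mESCs, tests whether the difference between mutant and WT cells depended on state. Of the 31 genes 2 were called (6.45%), Cyp51 and Scd2, both higher, against 9.73% of all genes called and 4.68% called higher, and none was called lower, against 5.05%. At an unadjusted p under 0.05, 9 members were positive and 3 negative, and the share of all genes at that p was not counted. DESeq2 called 1 member, against 1062 of 13238 genes, and limma-voom called 2, against 1252 of 13879. With upper quartile scaling edgeR called 5, against 1329 of 13879 genes. Of those 1329, 772 were higher, against 650 of 1351 in the edgeR fit used here. That scaling moved the difference over all genes by a median of 0.0311. In the sterol branch 16 of 18 enzymes had a positive difference, with a median of 0.13, beside 0.00 over all genes and -0.05 over the fatty acid enzymes. The 18 values share the same 12 libraries, so they are not separate observations. The count of 2 became 0 without mutant mESC replicate 2 or 3 or WT mESC replicate 2, 1 and 4 without WT EpiLC replicate 1 and 2, and 3 without mutant mESC replicate 1, and it was 3 with other genes, Msmo1, Sc5d and Acaca, without mutant EpiLC replicate 1. Without WT mESC replicate 1 it stayed 2, but the genes were Sc5d and Acaca.

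Cyp51 was 0.02 on the log2 scale for mutant against WT in EpiLCs and -0.18 in mESCs, a difference of 0.20 (SE 0.066, adjusted p 0.0395). In EpiLCs it had 246, 261 and 242 CPM in mutant libraries, against 238, 251 and 250.2 CPM in WT libraries, which overlap, whereas the mESC groups do not. The call ended without mutant mESC replicate 2 (adjusted p 0.0811) or 3 (0.122), mutant EpiLC replicate 1 (0.0554) or 2 (0.144), WT mESC replicate 1 (0.191) or 2 (0.0821), or WT EpiLC replicate 1 (0.128), and with DESeq2 (0.0731).

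Scd2 was 0.03 for mutant against WT in EpiLCs and -0.12 in mESCs, a difference of 0.15 (SE 0.044, adjusted p 0.0142). Its EpiLC groups overlapped. The call ended without mutant mESC replicate 2 (adjusted p 0.0513) or 3 (0.0538), mutant EpiLC replicate 1 (0.0537), WT mESC replicate 1 (0.0604) or 2 (0.0514), or WT EpiLC replicate 3 (0.0517).

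Some larger differences had larger errors and were not called. Sc5d had a difference of 0.33 (SE 0.118, adjusted p 0.057), and Hsd17b7 one of 0.30 (SE 0.118, adjusted p 0.0909). Ebp was the sterol enzyme with the most negative value, -0.30 (SE 0.143, adjusted p 0.197). In mESCs Hsd17b7 had 39.0, 37.4 and 34.6 CPM in mutant libraries, against 42.3, 39.3 and 41.9 CPM in WT libraries, a small gap downward where its EpiLC groups overlap. Tm7sf2 had 30.7, 27.8 and 25.1 CPM in mutant mESCs, against 28.3, 27.9 and 27.1 CPM in WT mESCs, and Sqle had 194, 193 and 183 CPM in mutant mESCs, against 191, 194 and 182 CPM in WT mESCs. Both overlapped in mESCs. Tm7sf2 (0.21), Sqle (0.16), Srebf1 (-0.16) and Acaca (-0.20) were not called either. For Insig2, called in none of the 5 edgeR comparisons, the libraries had 13.9, 15.8 and 14.2 CPM in mutant EpiLCs, 15.8, 14.2 and 14.6 in WT EpiLCs, 14.0, 15.9 and 15.2 in mutant mESCs and 11.8, 13.7 and 19.1 in WT mESCs, with all 4 groups overlapping.

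Genes around the pathways were counted from lists of general knowledge, to be read against the shares of all genes called: 31.7% higher and 31% lower between states in WT cells, 33.4% and 32.6% in mutant cells, 7.02% and 8.82% for mutant against WT in EpiLCs, 8.4% and 10.1% in mESCs, and 4.68% and 5.05% for the difference of effects. In SREBP processing and sterol sensing, 7 of 14 tested genes rose and 2 fell in WT EpiLCs against WT mESCs, with a median of 0.20, and the 9 called of 14 are near the 62.7% of all genes called. Rnf145, a sterol-responsive ligase that acts on SCAP, stood at 124 ± 4.92 CPM in WT EpiLCs and 48.3 ± 2.3 CPM in WT mESCs (SD, n = 3; log2 fold change 1.35, SE 0.063, adjusted p 3.86e-42). Of the 14, Rnf145 was also the gene called higher in mutant cells of both states, with a log2 fold change of 0.29 in EpiLCs (adjusted p 2.6e-05) and 0.22 in mESCs (adjusted p 0.0137). Mbtps2, a protease that releases SREBPs, was called lower in mutant EpiLCs (-0.28, adjusted p 0.00442).

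Genes of sterol uptake, storage and related steps had 8 of 17 tested higher and 6 lower in WT EpiLCs, with a median of 0.14. Soat1 and Lipa, given next, are among those that rose, and the 6 that fell are given by count only. Soat1, which esterifies cholesterol for storage, stood at 53.2 ± 2.67 CPM in WT EpiLCs and 16.1 ± 0.831 CPM in WT mESCs (log2 fold change 1.73, SE 0.097, adjusted p 4.19e-35). Lipa, the lysosomal lipase that frees cholesterol from esters, stood at 21.6 ± 1.51 CPM in WT EpiLCs and 8.25 ± 0.247 CPM in WT mESCs (log2 fold change 1.39, SE 0.152, adjusted p 8.6e-15). Between genotypes, 4 of 17 were higher and 3 lower in EpiLCs, and 2 were higher and 1 lower in mESCs. Vldlr, a lipoprotein receptor, was lower in mutant cells of both states, at 8.4 to 9.17 CPM in mutant EpiLCs and 13.6 to 16.1 in WT EpiLCs (log2 fold change -0.75, SE 0.159, adjusted p 0.000152), and at 9.58 to 11.3 CPM in mutant mESCs and 15.7 to 21.8 in WT mESCs (log2 fold change -0.87, SE 0.151, adjusted p 1.82e-06). Soat1 was higher in mutant EpiLCs, at 76.1 ± 2.66 CPM against 53.2 ± 2.67 CPM in WT EpiLCs (log2 fold change 0.51, SE 0.079, adjusted p 9.31e-08).

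LXR receptors switch on some efflux genes when sterols are plentiful. The list of LXR targets and efflux genes also holds the receptor genes, and not every gene in it is an LXR target. It had 1 of 7 tested higher and 4 lower in WT EpiLCs, with a median of -0.16. The exporters named next are among those that fell. Abca1, the exporter of cholesterol to lipoproteins, stood at 3.17 ± 0.414 CPM in WT EpiLCs and 45.9 ± 6.14 CPM in WT mESCs (log2 fold change -3.86, SE 0.146, adjusted p 8.51e-52). Abcg1, another exporter, stood at 9.48 ± 1.87 CPM in WT EpiLCs and 22.5 ± 0.709 CPM in WT mESCs (log2 fold change -1.26, SE 0.146, adjusted p 1.61e-13). In mutant mESCs 2 of 7 were called higher, Abca1 among them (56.7 ± 4.36 CPM, against 45.9 ± 6.14 CPM in WT mESCs; log2 fold change 0.30, SE 0.093, adjusted p 0.0143), a list in which DESeq2 called 0. None of the 7 was called in mutant against WT EpiLCs by edgeR, DESeq2 or limma-voom, and 0 had an unadjusted p under 0.05. The isoprenoid branch, which draws on farnesyl diphosphate, had 2 of 12 higher and 3 lower in WT EpiLCs, and 4 higher and 1 lower in mutant mESCs, where DESeq2 called 2 higher. In that list Fntb, a farnesyltransferase subunit, was higher in mutant mESCs (log2 fold change 0.28, SE 0.069, adjusted p 0.00133). In mutant against WT EpiLCs none of the 12 was called by edgeR, DESeq2 or limma-voom, and 1 had an unadjusted p under 0.05.

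Other fatty acid synthesis and supply genes had 7 of 20 higher and 9 lower in WT EpiLCs, with a median of -0.03. Dgat2, which completes triglycerides, stood at 19.8 ± 1.11 CPM in WT EpiLCs and 4.33 ± 0.67 CPM in WT mESCs (log2 fold change 2.17, SE 0.176, adjusted p 2.52e-22), and Acsl4, an acyl-CoA synthetase for polyunsaturated fatty acids, at 225 ± 3.23 CPM in WT EpiLCs and 62.3 ± 3.05 CPM in WT mESCs (log2 fold change 1.85, SE 0.055, adjusted p 1.42e-62). Thrsp went the other way, at 1.76 ± 0.241 CPM in WT EpiLCs and 5.84 ± 0.839 CPM in WT mESCs. Between genotypes, 3 of 20 were higher and 4 lower in EpiLCs, and 2 were lower in mESCs, where DESeq2 called 0 and limma-voom 3. Mid1ip1, an activator of acetyl-CoA carboxylase, was lower in mutant cells of both states, with a log2 fold change of -0.34 in EpiLCs (adjusted p 0.00135) and -0.24 in mESCs (adjusted p 0.027).

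Elongases and desaturases outside the 31 genes had 6 of 11 tested higher and 1 lower in WT EpiLCs, with a median of 0.42. Fads2 and Fads1, the desaturases of polyunsaturated fatty acids, had log2 fold changes of 0.78 and 0.54, and Elovl7 fell (-2.79). Elovl4, an elongase of very long chains, stood at 34 ± 4.63 CPM in mutant EpiLCs and 30.3 ± 1.82 in WT EpiLCs, and at 6.99 ± 1.05 CPM in mutant mESCs and 13.1 ± 2.79 in WT mESCs. It was called lower in mutant mESCs (log2 fold change -0.91, SE 0.158, adjusted p 2.52e-06), and the difference of effects was 1.07 (adjusted p 1.18e-05). Differences were also called for Fads2 (0.29, adjusted p 0.00113) and Fads1 (0.26, adjusted p 0.00577), all 3 positive, as for Scd2. Of the 11, Fads2 alone was called in mutant against WT EpiLCs, higher (0.19, adjusted p 0.000658).

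Fatty acid oxidation, the opposite process, had 4 of 17 tested genes higher, against 31.7% of all genes, and 10 lower, against 31%, in WT EpiLCs, with a median of -0.32. In mutant EpiLCs against mutant mESCs 5 were higher, against 33.4%, and 10 lower, against 32.6%, with a median of -0.37. Cpt1a, which commits fatty acids to mitochondrial oxidation, stood at 20.7 ± 1.42 CPM in WT EpiLCs and 210 ± 7.65 CPM in WT mESCs (log2 fold change -3.35, SE 0.068, adjusted p 1.19e-81). Slc25a20, the carnitine carrier, stood at 14 ± 3.7 CPM in WT EpiLCs and 35.8 ± 0.527 CPM in WT mESCs (log2 fold change -1.34, SE 0.12, adjusted p 3.25e-19). Other genes of the list went the opposite way. Cpt2 stood at 33.9 ± 3.05 CPM in WT EpiLCs and 22.8 ± 0.87 CPM in WT mESCs. Acadl stood at 26.6 ± 1.34 and 15.8 ± 2.11 CPM, and Acadvl at 26.6 ± 2.28 and 14.6 ± 1.77 CPM, in the same order. Between genotypes the list had no call in EpiLCs by edgeR, DESeq2 or limma-voom, with 2 genes at an unadjusted p under 0.05, and in mESCs Cpt1a was called lower (-0.21, adjusted p 0.00132) and Acadm, a dehydrogenase of the oxidation cycle, higher (0.20, adjusted p 0.00246).

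In mutant cells the counts between EpiLCs and mESCs were 8 higher and 2 lower for SREBP processing, 7 and 5 for uptake and storage, 1 and 5 for LXR targets and efflux, 3 and 5 for the isoprenoid branch, 7 and 9 for fatty acid supply, and 7 and 1 for elongases and desaturases. Abca1 (-4.21), Cpt1a (-3.39), Soat1 (2.03) and Dgat2 (2.10) had log2 fold changes of the same sign as in WT cells. For the difference of effects, outside the elongases and desaturases, edgeR called 1 gene higher and 1 lower in uptake and storage, 1 lower in LXR targets and efflux, Fntb lower (-0.36), Acsl4 higher (0.28) and Acadm lower (-0.24), the last called by neither DESeq2 nor limma-voom. In SREBP processing and sterol sensing the difference gave 0 calls by edgeR, DESeq2 and limma-voom, and 0 genes had an unadjusted p under 0.05.

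**Figure D5:**
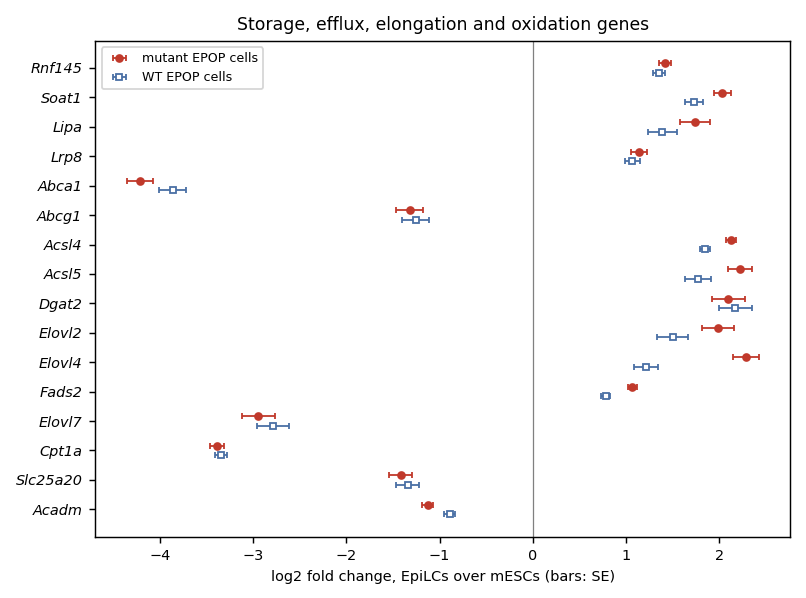
log2 fold change of EpiLCs over mESCs for 16 genes of sterol sensing, storage, efflux, fatty acid supply, elongation and oxidation outside the 31, in mutant cells (filled circles) and WT cells (open squares), with SE bars from the edgeR fit. The genes shown were picked for large shifts: Abca1, Cpt1a and Elovl7 lie far left, and Dgat2, Acsl4 and Soat1 well to the right, in both genotypes. The oxidation and efflux genes shown fell. The fatty acid supply genes and the sterol uptake and storage genes shown rose. Each of these lists held calls in both directions.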

How the data were processed

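The 12 libraries were grouped by their genotype and cell type labels. Columns that are not WT carry the code D5 in the count table, which no label explains; only WT and mutant EPOP occur among the labels, so D5 was read as mutant, and the direction of each mutant comparison depends on this. Nothing in the labels names separate cultures, so a p-value here reflects the spread between libraries, which may be technical.

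The count columns deposited by the authors are unnormalised reads per gene. The submitters' processing notes list FastQC 0.11.2, STAR 2.5.3a, Subread, featureCounts and edgeR 3.18.1, and the build mm10. The authors' deposited TPM gave levels of different genes within a group. The deposited CPM, a score on the authors' effective library sizes, entered no test. The authors' deposited p-values and log2 fold changes were used to count the calls credited to them.

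Of 19656 features, 26 hold spreadsheet dates instead of symbols, with 0.182 to 0.212% of counts, and were dropped. The filter was filterByExpr, the scaling TMM (factors 0.98 to 1.01), and 1 robust glmQLFit covered all libraries (edgeR 4.0.16, R 4.3.3, 8 residual degrees of freedom, biological variation 4.57%). glmQLFTest gave 5 comparisons, with Benjamini-Hochberg adjustment across 13879 genes and calls under 0.05. The steps were tested on simulated data. CPM in the text use effective library sizes. Groups said to lie apart or to overlap describe the libraries of that gene, and the share of all genes that lie apart was not counted. Joins were made in Python 3.11.15 with pandas 2.3.3, positions are from GENCODE M21 (GRCm38) and promoters from RefSeq.

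The members and gene lists were chosen with earlier results of these data known. Called members are named, those with the largest changes in each branch (up to 6) are given by library, and related lists name some of their called genes only. Alternatives were relative log expression and upper quartile scaling, DESeq2 1.42.0, limma-voom (limma 3.58.1), no filter, a filter at a mean of 5 CPM, the compared groups only, a block on replicate number and leaving out each library.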

Additional observations from a re-analysis of the deposited data

Results flagged for a closer look

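By the edgeR test of the difference of mutant effects between EpiLCs and mESCs, 2 of the 31 genes were called (6.45%), against 9.73% of all genes. For Cyp51 the log2 fold change of mutant over WT in EpiLCs, less that in mESCs, was 0.195 (adjusted p 0.0395). For Scd2 it was 0.149 (adjusted p 0.0142). In both genes the mutant value was lower in mESCs, and the EpiLC groups overlapped. Neither gene was called without mutant mESC replicate 2 or 3, mutant EpiLC replicate 1, or WT mESC replicate 1 or 2. The Cyp51 call also ended with DESeq2 (adjusted p 0.0731).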

How the results depend on the processing

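Direction was kept by each of the 69 member calls under each alternative run. Over the libraries left out, the count of members called ran from 7 to 13 for mutant against WT in mESCs, 3 to 4 in EpiLCs, 0 to 4 for the difference of effects, 25 to 26 between states in WT cells and 24 to 26 in mutant cells. The 7 came without mutant mESC replicate 3, where calls over all genes were 2018 of 14126, against 2574 of 13879 with all libraries. For the difference it was 0 without mutant mESC replicate 2 or 3 or WT mESC replicate 2, with 8, 11 and 11 members at an unadjusted p under 0.05, 1 without WT EpiLC replicate 1 and 4 without WT EpiLC replicate 2. For mutant against WT in EpiLCs, against 3 in the edgeR fit, limma-voom called 6 and the filter at a mean of 5 CPM called 5. Over all genes these settings called 2234 of 13879 and 2123 of 10790. For the difference, against 2, upper quartile scaling called 5 and DESeq2 called 1. Over all genes they called 1329 of 13879 and 1062 of 13238, and upper quartile scaling moved the difference by a median of 0.0311. Of the 69 calls, none was lost with relative log expression scaling or limma-voom, or, of the 67 it covers, with the compared groups only; DESeq2 lost 3, the filter at 5 CPM 3, upper quartile scaling 2 and no filter 1. Upper quartile scaling moved the median of all genes in mESCs by -0.0253 and called 854 of 2466 genes higher, against 1166 of 2574. The block on the replicate number changed none of the 69 calls. Deviations of same-numbered libraries had correlations of -0.044 to 0.039 across genes, beside -0.035 to 0.046 for other-numbered libraries. No deviation shared by number was seen, but whether same-numbered libraries shared a culture or preparation cannot be told from these values. With 3 libraries a group and log2 errors near 0.05 for most members, shifts of the size seen between genotypes sit close to the threshold. Keeping only promoter windows within 1000 bases of the gene start, chosen after seeing the data, left 19 members with CCAAT and 19 with GGGCGG, against 20 and 21.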
